A study of Mus musculus with 2 samples.

Results

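The nuclear genes that encode the subunits of the oxidative phosphorylation complexes were examined in sorted long-term haematopoietic stem cells (LT-HSCs). Members were found by their gene names: Ndufa, Ndufb, Ndufc, Ndufs and Ndufv genes, Sdha to Sdhd, Uqcr genes and Cyc1, Cox4 to Cox8 genes and Atp5 genes. The names matched 89 of 24203 named genes on the array, carried by 129 transcript rows. Of these, 81 encode subunits of complexes I to V (35, 4, 8, 19 and 15 genes, with the supercomplex factor Cox7a2l and Ndufa4, now known as a complex IV subunit, counted under complex IV), and 8 encode assembly factors or other proteins. The cia-cGAS KO array held RNA from LT-HSCs of 8 week-old C57BL/6 mice that lack the circular RNA cia-cGAS, and the WT array held RNA from the same cell type of mice with the normal cia-cGAS genotype, also 8 weeks old. Each genotype had 1 array, so no difference below has a replicate check and none was tested. The sources used here do not say how the deletion was made, which markers were sorted on or whether animals were pooled. The level of cia-cGAS was not analysed here.

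Oxidative phosphorylation takes place in the inner mitochondrial membrane. Complexes I and II pass electrons from NADH and succinate to ubiquinone, complex III passes them on to cytochrome c, and complex IV hands them to oxygen. The proton gradient built by complexes I, III and IV drives complex V, the ATP synthase. LT-HSCs at rest are known to lean on glycolysis and to raise respiration as they divide and differentiate.

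Values are log2 intensities, and every difference is KO minus WT. A detection floor on each array was set at 8.97 in KO and 9.11 in WT, the 95th percentile of receptor genes of smell, pheromones and taste. One row stood for each gene, the one with the highest mean of both arrays. Above the floor on both arrays were 76 of the 81 subunit genes and 9239 of all named genes, and the comparisons below are over these. Of 12 markers of LT-HSCs and early progenitors, 8 were above the floor in KO and 8 in WT. These included Kit at 12.42 in KO and 12.12 in WT and Ly6a, which encodes Sca-1, at 13.37 in KO and 12.97 in WT, whereas Procr and Slamf1 were below both floors. Other markers of the list read lower in KO, among them Hoxa9 at 9.97 in KO and 10.58 in WT. Cd34 read 11.73 in KO and 12.24 in WT in its brightest row, but its other rows differed by -0.17 and 0.23. Of the 2 markers above the floor on a single array, Tal1, at 8.69 in KO and 10.10 in WT, was above it in WT, and the other in KO. Of the 7 above both floors 4 had a negative difference, and their median was -0.05.

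The subunit genes read slightly lower in KO as a group, and most differences were small. Their median difference was -0.18, against -0.04 over all genes, and 50 of 76 (65.8%) had a negative difference, against 53.6% of all genes. At least 1.5-fold lower in KO were 8 subunit genes, where 12.5% of all genes were, and at least 1.5-fold higher was 1, where 11.4% of all genes were. Past 1.5-fold in either direction were thus 9 of 76 (11.8%), against 23.9% of all genes. Among genes with a mean level of at least 10, 8 of 64 subunit genes (12.5%) were past 1.5-fold, against 27.2% of 6719 genes; 7 were lower, where 13.3% of genes were, and 1 was higher, where 13.8% were. In the same set 44 of 64 (68.8%) were negative, against 52.3%. At 2-fold, 1 subunit gene was lower (4.19% of all genes) and 0 were higher (5.37% of all genes). The share of lower subunit genes was thus close to that of all genes, and the share of higher ones was below it. In bulk samples such as these, fewer cells of a type and less RNA per cell cannot be told apart.

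**Figure D1:**
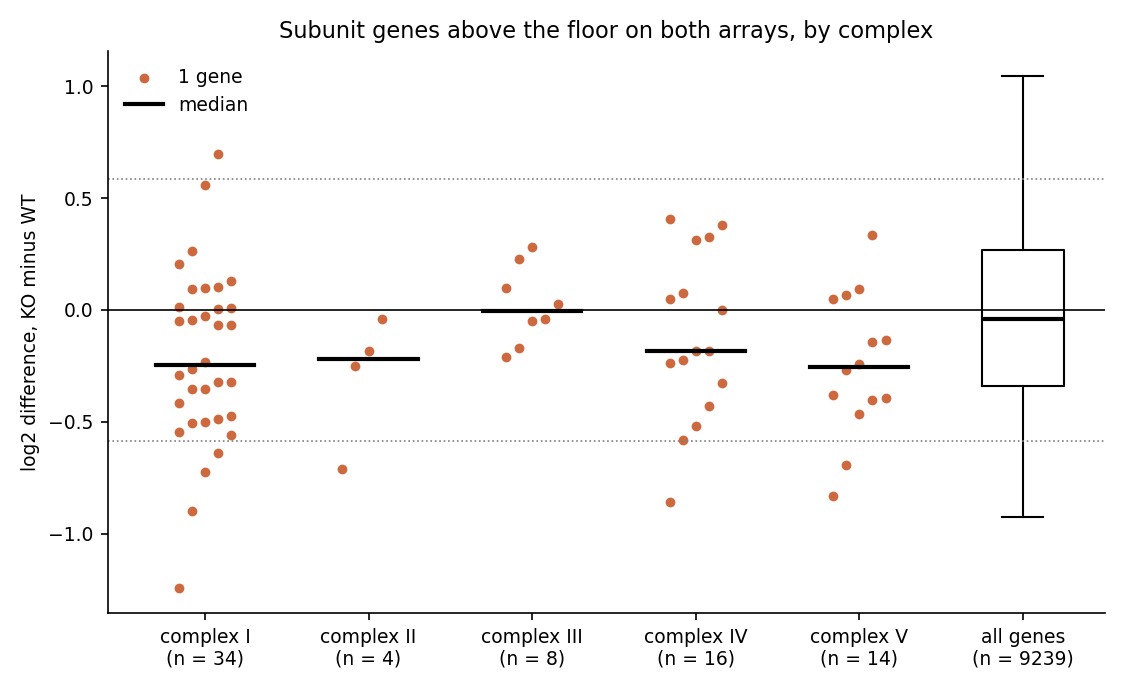
Log2 difference between KO and WT (vertical axis) of each subunit gene above the floor on both arrays, by complex, with black bars at the medians; dotted lines mark 1.5-fold. The box shows all 9239 genes, with its edges at the quartiles and whiskers at the 5th and 95th percentiles (-0.93 and 1.04), and 75 of the 76 subunit genes lie within the whiskers.

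By complex, the medians were -0.25 for complex I (34 genes), -0.22 for complex II (4 genes), -0.01 for complex III (8 genes), -0.18 for complex IV (16 genes) and -0.26 for complex V (14 genes). Genes with a negative difference numbered 23 of 34, 4 of 4, 4 of 8, 9 of 16 and 10 of 14 in the same order. Complex III thus lay nearest to 0. Past 1.5-fold were 0 of its 8 genes, beside 11.8% of the subunit genes and 23.9% of all genes, and 8 genes are few for such a count. The medians of complexes I, II and V lay close together, and their order changed with the settings: without subunit genes that have a near copy they were -0.15, -0.22 and -0.27. Genes of one complex are not replicates of a condition, and the differences between complexes were not tested. The medians of complexes III and IV changed sign under some alternatives. With the second brightest row of each gene, for instance, they were 0.10 and 0.0005. The medians of complexes I, II and V stayed below 0 under every alternative run.

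Complex I, the NADH dehydrogenase, had 5 of 34 genes past 1.5-fold (14.7%, against 23.9% of all genes). Ndufs6, which encodes a zinc-binding subunit at the NADH-oxidising end of the enzyme, read 11.75 in KO and 13.00 in WT, a difference of -1.24 (2.36-fold lower, chr13:73457323-73465903 on MM9). Its other row read 9.23 in KO and 10.61 in WT, a difference of -1.38, so both rows of the gene were lower. A near copy of the gene on chromosome 7, named Ndufs6b in RefSeq, had a row that read 10.76 in KO and 11.30 in WT, and near copies can share hybridisation. Ndufb4c, a near copy of Ndufb4, differed by -0.79, and Ndufb4 itself by -0.51.

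The next lowest were genes of the membrane arm, the part of complex I that pumps protons. Ndufb10 read 13.15 in KO and 14.05 in WT, a difference of -0.90, and -0.56 in its other row. Ndufb9, a protein of the LYR motif family, read 11.61 in KO and 12.33 in WT, a difference of -0.72. For Ndufb2, a small subunit, the brightest row read 9.23 in KO and 9.87 in WT (-0.64), while the other read 9.58 in KO and 9.37 in WT (0.21). The rows of Ndufb2 therefore pointed in opposite directions, although it counts as lower by its brightest row.

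The highest difference in complex I belonged to a gene of the peripheral arm, the part that oxidises NADH and reduces ubiquinone. Ndufs4, an accessory subunit whose loss in humans causes Leigh syndrome, read 11.65 in KO and 10.96 in WT, a difference of 0.70 (1.62-fold higher, chr13:115078857-115178260 on MM9). It was the 1 subunit gene past 1.5-fold upward. Ndufa9, another accessory subunit of that arm, read 9.53 in KO and 9.27 in WT (0.26), and Ndufa10, of the membrane arm, 11.30 in KO and 11.10 in WT (0.20).

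Sorted by arm, the 17 membrane arm genes had a median of -0.32 with 14 negative, and the 16 peripheral arm genes a median of -0.02 with 8 negative. The peripheral arm held both ends of the range, Ndufs6 and Ndufs4. Ndufab1, the mitochondrial acyl carrier protein found in both arms, differed by -0.50. The 7 core subunits, which carry the redox centres and the ubiquinone site, had a median of -0.05 with 0 past 1.5-fold, and Ndufs7, at -0.49, was the lowest of them. The 27 accessory subunits, which are most of the 34 genes, had a median of -0.26. All 5 complex I genes past 1.5-fold were among them (18.5%, against 23.9% of all genes). The 7 core genes are too few for their count of 0 to set the groups apart. Ndufv2, an iron-sulphur core subunit, differed by -0.32 in its brightest row (13.80 in KO, 14.13 in WT), and by more in a second row that read 8.28 in KO, below the floor, and 9.89 in WT. Ndufa1 was below the floor on both arrays.

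**Figure D2:**
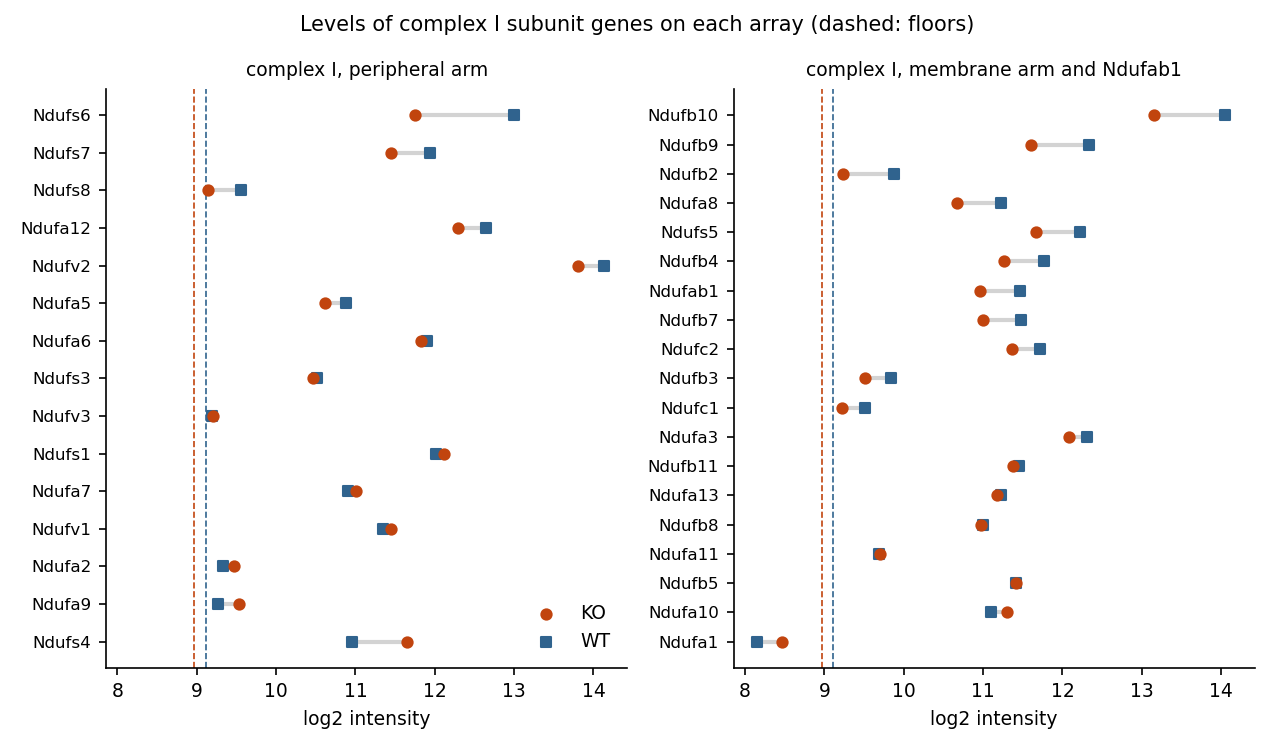
Log2 intensity (horizontal axis) of complex I subunit genes in KO (circles) and WT (squares), ordered by difference, with 1 gene not drawn and dashed lines at the floor of each array. In the membrane arm most circles lie left of the squares, and in the peripheral arm Ndufs6 and Ndufs4 stand at opposite ends.

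Promoter sequences were available for 66 of the 81 subunit genes (RefSeq, GRCm38.p6, 250 bases before to 50 after the start of the gene). They are shown for the complex I genes at both ends of the range, 5′ to 3′ on the strand of the gene, with matches to the motifs searched in capitals. The windows lie at chr13:73328433-73328732 for Ndufs6 and at chr13:114388045-114388344 for Ndufs4, both on the minus strand.
Ndufs6: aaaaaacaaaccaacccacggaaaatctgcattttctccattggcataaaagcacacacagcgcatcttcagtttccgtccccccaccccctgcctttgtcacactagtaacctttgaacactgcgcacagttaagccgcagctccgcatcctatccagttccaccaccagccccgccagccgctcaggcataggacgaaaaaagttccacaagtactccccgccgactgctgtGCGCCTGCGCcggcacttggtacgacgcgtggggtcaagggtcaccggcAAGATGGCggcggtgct
Ndufs4: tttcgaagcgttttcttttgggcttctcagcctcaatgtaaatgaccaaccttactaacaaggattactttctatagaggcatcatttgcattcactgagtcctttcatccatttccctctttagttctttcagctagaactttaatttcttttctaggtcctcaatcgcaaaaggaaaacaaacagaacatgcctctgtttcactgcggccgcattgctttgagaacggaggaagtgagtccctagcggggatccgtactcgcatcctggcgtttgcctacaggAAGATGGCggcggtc
The Ndufs6 window held GCGCCTGCGC, a match to the motif of NRF1, a transcription factor known for binding promoters of respiratory chain genes. The motif was searched on both strands with its sixth base free, and GCGCAGGCGC and GCGCAAGCGC are other matches to it. The match began 16 bases before the start. Both windows held AAGATGGC, a core of the motif of the factor YY1, beginning 33 bases after the first base of the gene in Ndufs6 and 35 bases after it in Ndufs4. The genes with opposite differences thus shared this element, and a match to letters is a description, not a binding site.

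Over all subunit genes with a promoter sequence, the NRF1 motif was found for 17 of 66 (25.8%), against 5.19% of 27025 genes with a sequence and 11.5% of the 6472 genes with a sequence that were above the floor on both arrays. AAGATGGC or its reverse complement GCCATCTT was found for 10 of 66 (15.2%), against 3.19% of all and 5.28% of genes above the floor, and 8 of the 10 matches began after the first base of the gene, by 22 to 38 bases. CCGGAAGT or ACTTCCGG, the motif of ETS factors such as GABPA, was found for 5 of 66 (7.58%), against 4.31% and 9.04%. TATAAA on either strand was found for 7 of 66 (10.6%), against 15.7% and 10.6%. The NRF1 motif can match both strands at one place where a site is its own reverse complement, and each gene was counted once. The 17 subunit genes with the NRF1 motif had a median difference of -0.26, with 15 negative, and the 44 without it a median of -0.16, with 30 negative. Those with AAGATGGC spanned both Ndufs6 and Ndufs4. Their median over 9 genes above the floor was -0.13, against -0.23 over the 52 without it. For the ETS motif the median was -0.17 over 5 genes with it and -0.23 over 56 without it. For TATAAA it was -0.23 over 5 genes and -0.22 over 56. The motifs thus did not share a direction, and none of these contrasts was tested.

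Complex II, succinate dehydrogenase, is also an enzyme of the citric acid cycle, and all 4 of its genes read lower in KO. Sdha, the flavin-bearing catalytic subunit, read 13.97 in KO and 14.22 in WT (-0.25), and Sdhb, the iron-sulphur subunit, 11.02 in KO and 11.06 in WT (-0.04). The membrane anchor Sdhd read 10.95 in KO and 11.13 in WT (-0.18). Sdhc, the other anchor, read 9.66 in KO and 10.37 in WT in its brightest row, a difference of -0.71, but its second row differed by -0.13. The second row of Sdhb differed by 0.20, so the direction of Sdhb depends on the row. The Sdha promoter (chr13:74350191-74350490, minus strand, GRCm38.p6) is shown because it held more matches to the NRF1 motif, in capitals, than those of Sdhb and Sdhd.
Sdha: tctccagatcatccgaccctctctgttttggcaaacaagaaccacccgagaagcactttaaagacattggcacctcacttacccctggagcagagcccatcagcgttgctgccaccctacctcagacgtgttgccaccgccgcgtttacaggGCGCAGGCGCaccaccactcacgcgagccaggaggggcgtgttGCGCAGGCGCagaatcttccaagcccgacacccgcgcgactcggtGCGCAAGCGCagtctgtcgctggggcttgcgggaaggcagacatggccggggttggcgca
Its 3 matches began 98, 55 and 10 bases before the start.

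Complex III, the cytochrome bc1 complex, showed the smallest differences, from -0.21 to 0.28 over its 8 genes. Uqcrfs1, the Rieske iron-sulphur protein, read 10.72 in KO and 10.44 in WT (0.28), and Uqcrb, a small subunit, 13.81 in KO and 13.58 in WT (0.23). Of the large core proteins, Uqcrc2 read 11.99 in KO and 11.89 in WT (0.10) and Uqcrc1 10.10 in KO and 10.31 in WT (-0.21). Uqcr, named Uqcr11 in RefSeq, read 9.11 in KO and 9.28 in WT (-0.17), Uqcrq 10.44 in KO and 10.49 in WT (-0.05) and Uqcrh 12.77 in KO and 12.81 in WT (-0.04). Cyc1, which carries the haem that reduces cytochrome c, read 10.12 in KO and 10.09 in WT (0.03). A second row of Cyc1 read 8.54 in KO, below the floor, and 9.51 in WT. A gene listed under an older name, 1110020P15Rik, which is Uqcr10 in RefSeq and was outside the name pattern, differed by 0.01.

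In complex IV, cytochrome c oxidase, most ubiquitous subunits read lower in KO. Of the 4 tissue-restricted isoforms above both floors, 3 read higher, with 0 past 1.5-fold. The 11 ubiquitous genes had a median of -0.23 with 8 negative. Cox7b, a small subunit encoded on the X chromosome, read 10.72 in KO and 11.57 in WT, a difference of -0.86 (1.81-fold lower), and its second row was below both floors. Cox5a read 9.86 in KO and 10.44 in WT (-0.58), just short of 1.5-fold. Cox6b1, which faces the intermembrane space, read 12.81 in KO and 13.24 in WT (-0.43). Cox7c read 10.98 in KO and 11.49 in WT (-0.52), while a dimmer row of the gene differed by 0.02. Cox4i1, the largest nuclear-encoded subunit, read 12.53 in KO and 12.46 in WT (0.08), and Cox7a2 10.54 in KO and 10.22 in WT (0.33), the highest ubiquitous gene.

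Of the 7 isoforms known from muscle, lung or testis, 4 were above the floor on both arrays and 3 below both. The testis isoform Cox6b2 read 10.11 in KO and 9.70 in WT (0.40), opposite in sign to its ubiquitous partner Cox6b1. The muscle isoform Cox6a2 read 10.96 in KO and 10.58 in WT (0.38), while its partner Cox6a1 differed by -0.23. The lung isoform Cox4i2 had an intensity of 1023 in KO and 824 in WT, a log2 difference of 0.31, the same sign as that of Cox4i1. The testis isoform Cox8c differed by -0.24 and its partner Cox8a by -0.33. Cox7a1, Cox7b2 and Cox8b lay below both floors. Cox7a2l, which joins complexes III and IV into supercomplexes, read 11.86 on both arrays.

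Complex V, the ATP synthase, had 2 of 14 genes past 1.5-fold (14.3%, against 23.9% of all genes), both lower in KO. Atp5a1, the alpha subunit of the catalytic head, read 12.95 in KO and 13.78 in WT, a difference of -0.83 (1.78-fold lower), and has 1 row. Atp5k, subunit e of the membrane part, read 11.52 in KO and 12.21 in WT (-0.69), and its second row differed by -0.73. Atp5b, the beta subunit that pairs with alpha in the head, differed by -0.27.

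The rest of the catalytic head did not share the size of the Atp5a1 difference. The rotor subunit gene Atp5c1 differed by -0.24 and Atp5e, which read 11.39 in KO and 11.34 in WT, by 0.05. Atp5d read 11.27 in KO and 10.94 in WT (0.34) in its brightest row and differed by -0.19 in the other. Over the 5 genes of the head and its rotor (the F1 part) the median was -0.24. Over 9 genes of the membrane part and stalk it was -0.38, with 7 negative. The stalk genes Atp5o, which read 12.38 in KO and 12.78 in WT, and Atp5f1 differed by -0.40 and -0.13. Atp5h, also of the stalk, read 14.68 in KO and 15.07 in WT (-0.39). The 3 genes for subunit c of the rotor ring, which encode the same mature protein, did not share a direction. Atp5g1 read 9.71 in KO and 10.17 in WT (-0.46), Atp5g2 10.47 in KO and 10.38 in WT (0.09) and Atp5g3 11.43 in KO and 11.81 in WT (-0.38). The second row of Atp5g1 read 9.56 in KO and 8.91 in WT, below the floor, and the second row of Atp5g2 differed by -0.32, so both genes had rows of opposite sign. Atp5j2 read 12.76 in KO and 12.70 in WT (0.07), Atp5l differed by -0.14, and Atp5j was below both floors. The small membrane subunits Atp5md and Atp5mpl, listed under older names outside the pattern, differed by 0.29 and 0.21.

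**Figure D3:**
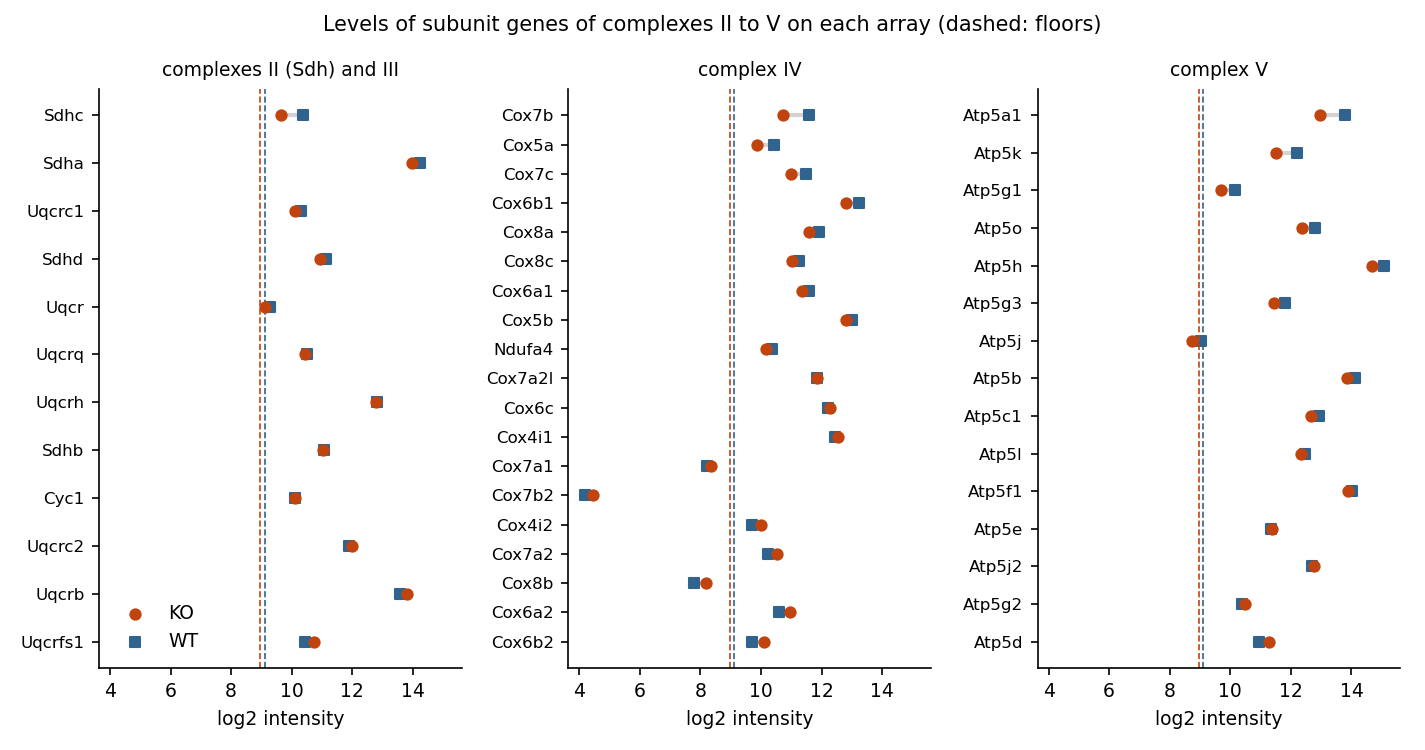
Log2 intensity (horizontal axis) of the subunit genes of complexes II to V in KO (circles) and WT (squares), ordered by difference within each panel, with dashed lines at the floor of each array. Complex III genes have nearly overlapping symbols, and Cox7b, Atp5a1 and Sdhc have the widest gaps.

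Rows of the same gene are the repeated measurements within an array that were compared here. Whether they share probes was not checked. Among the subunit genes, 15 had at least 2 rows above the floor on both arrays, and the differences of these 31 rows varied with a pooled SD of 0.27 around the mean of their gene. Over 2892 genes of all kinds it was 0.37. In 8 of the 15 genes the rows had the same sign (53.3%, against 60.3% of all genes). The other 7 were Ndufb2, Ndufa11, Sdhb, Cox7c, Atp5d, Atp5f1 and Atp5g2. Of these 15 genes, Ndufs6 and Atp5k were at least 1.5-fold lower in every row above both floors, whereas Ndufb10, Sdhc and Ndufb2 passed 1.5-fold in 1 of 2 such rows each.

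**Figure D4:**
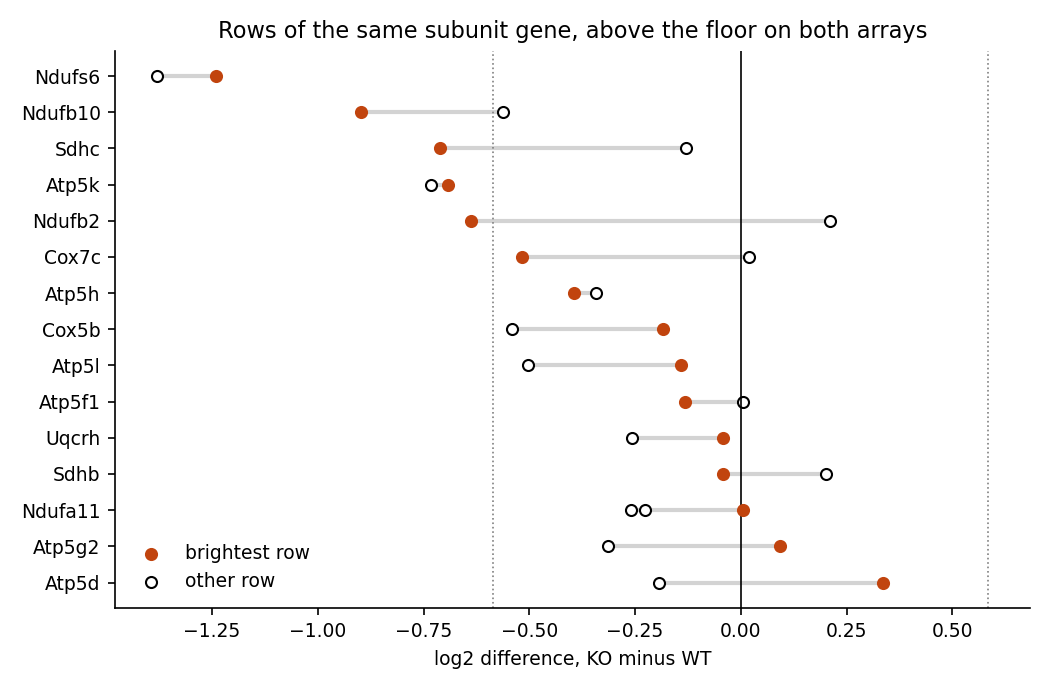
Log2 difference between KO and WT (horizontal axis) of each row of the 15 subunit genes with several rows above the floor on both arrays. Filled circles are the brightest rows, open circles the others, and dotted lines mark 1.5-fold: the rows of Ndufs6 and Atp5k lie close together, and those of Ndufb2 and Atp5d lie on both sides of 0.

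The 8 genes of the name pattern that encode no subunit were of several kinds. Ndufaf2, an assembly factor related to the subunit Ndufa12, read 11.71 in KO and 12.76 in WT, a difference of -1.05 (2.08-fold lower), and its second row differed by -0.88. Ndufa12 itself differed by -0.35. Ndufaf4, another complex I assembly factor, read 8.95 in KO, below the floor, and 9.42 in WT, and was thus at least 1.37-fold lower in KO. Cox4nb, a neighbour of Cox4i1 named Emc8 in RefSeq, read 8.75 in KO, also below the floor, and 10.03 in WT, and was at least 2.09-fold lower in KO. Ndufa4l2, a relative of Ndufa4, differed by 0.19. Ndufaf1, Ndufaf3, Atp5s and Atp5sl were below both floors.

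Among 45 assembly factor genes of all complexes measured, 22 were above the floor on both arrays, with a median of -0.38 and 16 negative. At least 1.5-fold lower were 7 of these and 1 was higher, beside 12.5% and 11.4% of all genes. For complex I, Timmdc1 read 9.45 in KO and 10.21 in WT (-0.76) and Ecsit 9.92 in KO and 10.63 in WT (-0.71), with Ndufaf2 the lowest. Of the 7 complex I factors above both floors, 5 had a negative difference and 2 a positive one. The 2 were Ndufaf7 and Acad9, at 0.55 and 0.40 in their brightest rows. In another row each they differed by 0.84 and 0.70. Sdhaf2, which attaches the flavin to Sdha, read 11.87 in KO and 12.93 in WT (-1.06), and its second detected row differed by -0.40. Sdhaf4 differed by -0.69. For complex IV, Cox16 differed by -0.82 and Lrpprc, which stabilises mitochondrial messenger RNAs, by -0.69. Coa5 read 12.38 in KO and 11.31 in WT, a difference of 1.07 (2.10-fold higher).

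Cycs, the gene of cytochrome c that carries electrons from complex III to complex IV, stood out among the electron carriers. It read 12.50 in KO and 11.38 in WT, a difference of 1.12 (2.18-fold higher), and its second row differed by 1.18. Cytochrome c is also the protein that starts the caspase cascade when released from mitochondria. The 10 electron carrier genes above the floor had a median of -0.08, and Cycs was the 1 past 1.5-fold. Of 13 citric acid cycle genes, 12 had a negative difference by their brightest row, where 53.6% of all genes did. Past 1.5-fold were 0 of the 13, against 23.9% of all genes, and their median was -0.18. Cs, citrate synthase, counts among the 12 at -0.23, but its other row read 11.45 in KO and 10.78 in WT (0.67). Sucla2 and Idh3g, also among the 12, each had a row above both floors with a positive difference, 0.23 and 0.04.

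Of 13 genes of mitochondrial biogenesis and coupling above the floor, 2 were at least 1.5-fold lower (15.4%, beside 12.5% of all genes), 0 were higher and the median was -0.23. Vdac1, the main channel of the outer membrane, read 12.20 in KO and 13.25 in WT (-1.04), and the gene of the transcription factor YY1 read 12.66 in KO and 13.50 in WT (-0.84). Nrf1 differed by -0.03 in its brightest row and by -0.42 in its other row above both floors. Gabpa differed by -0.42 in its brightest row and by 0.29 and 0.83 in the others. Atpif1, the inhibitor of the ATP synthase, differed by -0.56 and the uncoupling protein gene Ucp2 by -0.41. Tfam, which packages mitochondrial DNA, was above the floor in KO alone at 9.06, against 8.84 in WT, and Ppargc1a, a coactivator of mitochondrial biogenesis, was below both floors.

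**Figure D5:**
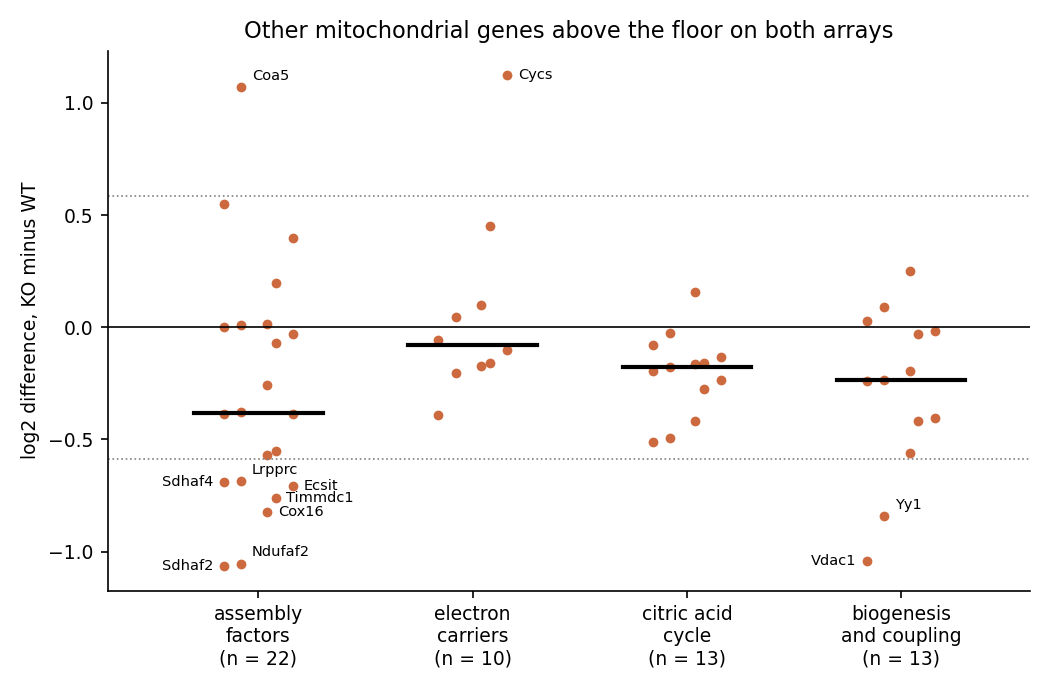
Log2 difference between KO and WT (vertical axis) of other mitochondrial genes above the floor on both arrays, with black bars at the medians and dotted lines at 1.5-fold. Named points are past 1.5-fold; Cycs and Coa5 lie above the upper line, while Sdhaf2, Ndufaf2 and Vdac1 are the lowest.

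Complexes I, III, IV and V also hold subunits encoded by mitochondrial DNA. The array had 7 rows on the mitochondrial chromosome, none with a gene name, and 6 of them read at least 15.19 in KO and 15.29 in WT, close to the highest values of any row (15.84 in KO and 15.89 in WT). Values there may be saturated and the differences compressed, which was not tested. By the product names in the annotation, the rows named for complex I subunits differed by 0.41 (NADH dehydrogenase 1) and 0.29 (NADH dehydrogenase 4). Those named for cytochrome oxidase differed by -0.28 (subunit 3) and -0.32 (polypeptide II). The NADH dehydrogenase 1 row spans positions 1148 to 3703, and which part of that span its probes read was not checked.

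Genes of both kinds of ribosome, which are likewise widely used, are given for scale. The 62 genes of mitochondrial ribosomal proteins had a median of -0.19 with 44 negative, and the 76 genes of cytosolic ribosomal proteins a median of -0.14 with 54 negative. The median of -0.18 over the subunit genes lay between those of these lists.

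Markers of other marrow cells also differed between the arrays, and their part in the differences of the subunit genes was not tested. Of 10 erythroid markers measured, 7 were above the floor in KO and 8 in WT, and their summed intensity was 51227 in KO and 84791 in WT. Of 10 B lineage markers, 4 were above the floor in KO and 8 in WT, with a sum of 3773 in KO and 21199 in WT, and Pax5 was below the KO floor. Of 8 markers of cycling cells, 7 were above the floor in KO and 8 in WT, with a sum of 29210 in KO and 52015 in WT. Of 8 neutrophil markers, 8 were above the floor in KO and 8 in WT, with a sum of 180825 in KO and 148170 in WT, where 7 of 8 differences were positive. The 6 monocyte and macrophage markers summed to 41575 in KO and 21274 in WT, mostly through Ctss at 14.95 in KO and 13.44 in WT on the log2 scale. Of the 5 such markers above both floors, 3 had a negative difference, and their median was -0.29. Of 4 megakaryocyte markers, 2 were above the floor in KO and 3 in WT, with a sum of 3078 in KO and 11863 in WT. Most of this sum came from Ppbp, at 11.06 in KO and 13.24 in WT on the log2 scale. The summed intensity of the 76 subunit genes was 298676 in KO and 355759 in WT.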

How the data were processed

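Single-colour NimbleGen arrays were labelled with Cy3, 1 per genotype, per the labels. The authors deposited linear intensities that they summarised with RMA (robust multi-array average, no version given), per the submitters' processing notes. RMA in general equalises the distributions of the arrays it is run on, so differences are relative to other genes; the sources used here do not say which arrays shared a run. The rows of the members are summaries of 3 probes each and are placed on MM9 in the annotation, with the counting of the first base not stated. The number of arrays limits the precision.

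Intensities were put on the log2 scale with Python 3.11.15, numpy 2.4.6 and pandas 2.3.3 and not normalized again. Of 44170 transcript rows, 41886 carried a gene. The floor rested on 1025 receptor rows. Current symbols came from RefSeq (GRCm38.p6) by gene ID, a build used for names and promoters alone; 5 members have a newer one. Members may be named with values, in full the 4 highest and 4 lowest of each complex, those above 1 floor and isoform pairs. Of other lists (assembly factors by complex), up to 3 of the highest and lowest past 1.5-fold are named, and Cycs, Atpif1, Ppargc1a, Tfam, Nrf1, Ucp2 and Lrpprc in any case. Gabpa, Cs, Sucla2, Idh3g, Ndufaf7, Acad9, the near copies, the ribosomal lists and the promoter motifs were added after values were seen. The values of 1 member and 1 marker are not reported here, though counts and medians include them. For a gene above 1 floor, the fold is a bound, its value against the other array's floor. Members and lists were chosen with earlier results of these data known. The steps were tested on simulated data, with changed genes set well above the floor. Noise there was smaller than the spread between rows of one gene here, so the test checks the steps and not the precision. Alternatives were other floors, other rows, centring, the series-wide table, other folds and other sets of members.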

Additional observations from a re-analysis of the deposited data

How the results depend on the processing

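Of 127 values recomputed under the alternatives, 115 stayed within 0.1 (log2) of the reported median or within 1.5 times the reported count, and 12 moved further. Part of the 115 could not move. The series-wide table held the same intensities. No subunit gene was above the floor on 1 array alone, so setting values below the floor to it changed nothing. The set of all name matches added no subunit. The limit of 0.1 is also large beside the median of -0.18, so the tally is no measure of robustness. The median over all subunit genes ran from -0.20 to -0.14. The medians ran from -0.26 to -0.15 for complex I, from -0.30 to -0.16 for complex II and from -0.33 to -0.19 for complex V. Complexes III and IV crossed 0: complex III was at 0.10 with the floor at the 99th percentile of receptor rows, 0.10 with the second brightest row of each gene and -0.12 with the mean of all rows, and complex IV was at 0.00 (0.0005) with no floor and at 0.0005 with the second brightest row. With the second brightest row, 4 subunit genes were at least 1.5-fold lower. The higher count was 2 after loess centring (span 0.3) and 2 after centring on the median of all genes. At 2-fold, 0 were higher and 1 lower in KO, and at a threshold midway between 1-fold and 1.5-fold 6 were higher and 26 lower. The shares of all genes were not computed for that midway threshold, the second brightest row or the centrings. The counts under these settings therefore cannot tell whether subunit genes differed from other genes. The settings without subunits that have a near copy, and with a mean level of at least 10, were chosen after seeing the data and moved 0 values past the limits above. The series-wide table differed by at most 1.277e-06 (log2) per row. No paired analysis was possible because each genotype has 1 array, and with 1 array the spread between animals is unknown.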
